A study of Mus musculus with 4 samples.

Results

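Sost and Cxxc5, a secreted and an intracellular restraint on Wnt signaling, were followed in bone RNA of exercised and sedentary mice. Both genes were chosen by symbol for their known function, with earlier results of these data known. Each had 1 row among the 1175 rows of the deposited count table, so 2 of 1175 genes are described. All mice were wild type, of the strain C57BL/6J as the study names it, and 13 weeks old when bone was taken. The exercise group had trained since the age of 8 weeks, for 5 weeks, with treadmill running of medium intensity, and the sedentary group had not run. Marrow was flushed out, and bulk polyadenylated RNA of the ground bone was sequenced as 4 libraries, 2 per group. The labels do not tie the libraries to separate animals, so the p-values measure the spread between these libraries, which may be technical.

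In the canonical Wnt pathway a Wnt ligand bridges a Frizzled receptor and the co-receptor LRP5 or LRP6, Dishevelled is recruited, and beta-catenin escapes destruction and activates TCF/LEF transcription factors. This signal drives bone formation by osteoblasts. Sost encodes sclerostin, which osteocytes, the cells embedded in bone matrix, secrete to block LRP5 and LRP6, and Sost is known in rodents to fall in bone under mechanical load. Cxxc5 encodes a zinc finger protein that binds unmethylated CpG DNA and, in the cytoplasm, binds Dishevelled and stops it from relaying the Wnt signal. Mice that lack Cxxc5 are known to gain bone.

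The table held only genes with a higher mean count in the exercise libraries. Column totals were 594856 and 516963 in the sedentary libraries and 1160883 and 2680636 in the exercise libraries. The depth of whole libraries is unknown, so each count was divided by its column total and is given as a share, in counts per 1000000 of the table. A share ratio compares a gene with the other listed genes and does not show whether the RNA rose or fell in bone. Over all 1175 genes the median log2 share ratio of exercise over sedentary was 0.14, and 753 genes were above 0. In bulk tissue, a change in the number of cells of a type and a change in the RNA per cell cannot be told apart.

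The share of Sost in the listed RNA did not differ detectably between exercised and sedentary bone in these libraries. The gene lies on chromosome 11 at 101962458 to 101967015 on the minus strand of mm10 and has 1 annotated transcript with 2066 exonic bases in GENCODE M21. No other annotated gene overlaps it, and its counts were whole numbers in all 4 libraries. It had 430 and 345 counts in sedentary replicates 1 and 2 and 912 and 1867 counts in exercise replicates 1 and 2. Both exercise counts lay above both sedentary counts, as the listing of the table favored. The shares were 723 and 667 in sedentary bone and 786 and 696 in exercised bone. In shares the groups overlapped, since exercise replicate 2 lay between both sedentary libraries.

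**Figure D1:**
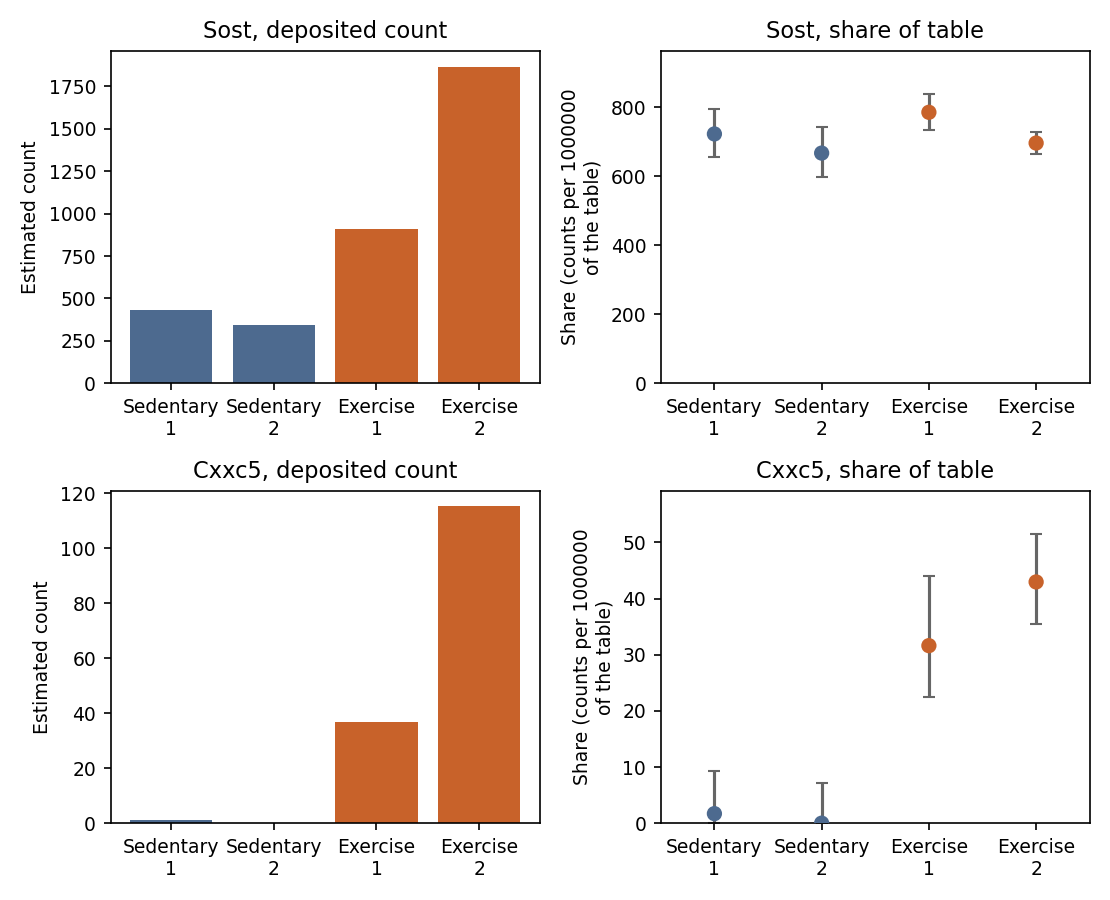
Deposited estimated counts (bars, left) and shares in counts per 1000000 of the table (points, right) of Sost and Cxxc5 in each of the 4 libraries, with exact 95% counting intervals on the shares. The Sost shares lie between 667 and 786 with overlapping groups, and the Cxxc5 shares are 1.70 and 0 in sedentary bone against 31.6 and 43.0 in exercised bone.

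The mean Sost share was 695 ± 39.2 in sedentary and 741 ± 63.0 in exercised bone (SD, n = 2 each). The log2 share ratio was 0.09 ± 0.15 (SE, edgeR adjusted p = 0.774), with a 95% interval from -0.29 to 0.47, so within the table neither a modest fall nor a modest rise could be told from no change. The ratio was -0.01 with DESeq2 size factors and -0.0023 with trimmed-mean (TMM) factors, so its sign was not determined. If instead all libraries were taken to have the same depth, the log2 ratio of Sost would be 1.84 (95% interval 0.17 to 3.51), near the median of 1.94 that all listed genes then had. Sost had a mean count 3.59 times higher in exercise, and the median listed gene with sedentary counts had one 3.82 times higher.

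The exact counting intervals of the Sost shares (Clopper-Pearson, 95%) were 656 to 794 and 599 to 742 in the sedentary libraries. In exercise replicates 1 and 2 they were 735 to 838 and 665 to 729. These intervals cover counting error only, and exercise replicate 1 lay above exercise replicate 2 without overlap. The log2 ratio of replicate 2 over replicate 1 was -0.17 for Sost in exercise and -0.12 in sedentary bone. Over 1005 genes averaging at least 100 counts, the median absolute value of this log2 ratio was 0.32 in exercise and 0.11 in sedentary bone. Sost was thus steadier than most listed genes between the exercise libraries, where 29.1% of those genes had a smaller difference, and ordinary between the sedentary ones, where 52.8% had.

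A ratio of 2 genes within a library does not depend on depth. Of the 1112 other genes with counts in all 4 libraries, the ratio of Sost to the other gene was higher in both exercise than in both sedentary libraries for 267, lower for 258, and overlapping for 587. These were 24.0% and 23.2% of the partners for Sost, beside medians of 12.5% higher and 22.8% lower over the 1113 genes that could be set against the others in this way. The counts describe where Sost stood among the listed genes and carry no test.

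Cxxc5 had few counts, and they fell almost wholly in the exercise libraries. The gene lies on chromosome 18 at 35829397 to 35861688 on the plus strand of mm10, with 6 annotated transcripts and 3008 exonic bases in GENCODE M21. It had 1.01 and 0 counts in sedentary replicates 1 and 2 and 36.7 and 115.15 counts in exercise replicates 1 and 2. The exercise libraries were both high and the sedentary libraries both near 0, with no overlap. The shares were 1.70 and 0 in sedentary bone and 31.6 and 43.0 in exercised bone. In exercise replicate 2 the log2 share was 0.44 above that in replicate 1. This was small beside the difference between the groups, which rests on sedentary counts of 1.01 and 0 in a gene listed for higher exercise counts.

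With 1 rounded sedentary count the size of the Cxxc5 difference was poorly fixed. The pooled share was 44.0 times higher in exercise (exact 95% counting interval 7.78 to 1749). Exercise replicate 1 alone gave a ratio of 35.4 (5.98 to 1437) and exercise replicate 2 alone a ratio of 47.7 (8.39 to 1900). The count of 0 in sedentary replicate 2 allows a share of up to 5.80, at a limit of 3 counts. The exact 95% counting interval of that share reaches 7.14. Both limits are below both exercise shares. The edgeR log2 share ratio was 5.25 ± 1.37 (SE), with a 95% interval from 1.83 to 8.67.

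With shares as input, Cxxc5 passed the thresholds that the study used (a log2 ratio beyond 0.25 in size at an unadjusted p below 0.05) and did not pass adjustment over the table (edgeR unadjusted p = 0.0101, adjusted p = 0.319). At those thresholds 11.3% of the listed genes were called higher and 0.0851% lower, and 0.34% had an adjusted p under 0.05. Among the 105 listed genes with a mean under 50 counts, which include Cxxc5, 16.2% passed. The table held only genes with a higher mean count in exercise, which favored passing with a higher share. In 36% of the genes the exercise shares were both higher than either sedentary share. The call was lost without sedentary replicate 2, where the log2 share ratio was 4.41 (edgeR unadjusted p = 0.0617). Without sedentary replicate 1 the remaining sedentary count was 0, and the exercise share was then at least 6.81-fold higher, against 3 counts in that library.

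The listing itself bears on this value. Cxxc5 had a mean of 38.2 counts over the 4 libraries, and the 105 listed genes with a mean under 50 counts had a median log2 share ratio of 3.03 and a lowest of 1.13. The groups did not overlap, with exercise higher, in 91.4% of those 105 genes, against 19.96% of the 511 genes with a mean of 500 to under 2000 counts, where Sost stood. Every listed gene with so few counts thus had a higher share in exercise, and the separation of Cxxc5 describes a gene selected for the table.

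**Figure D2:**
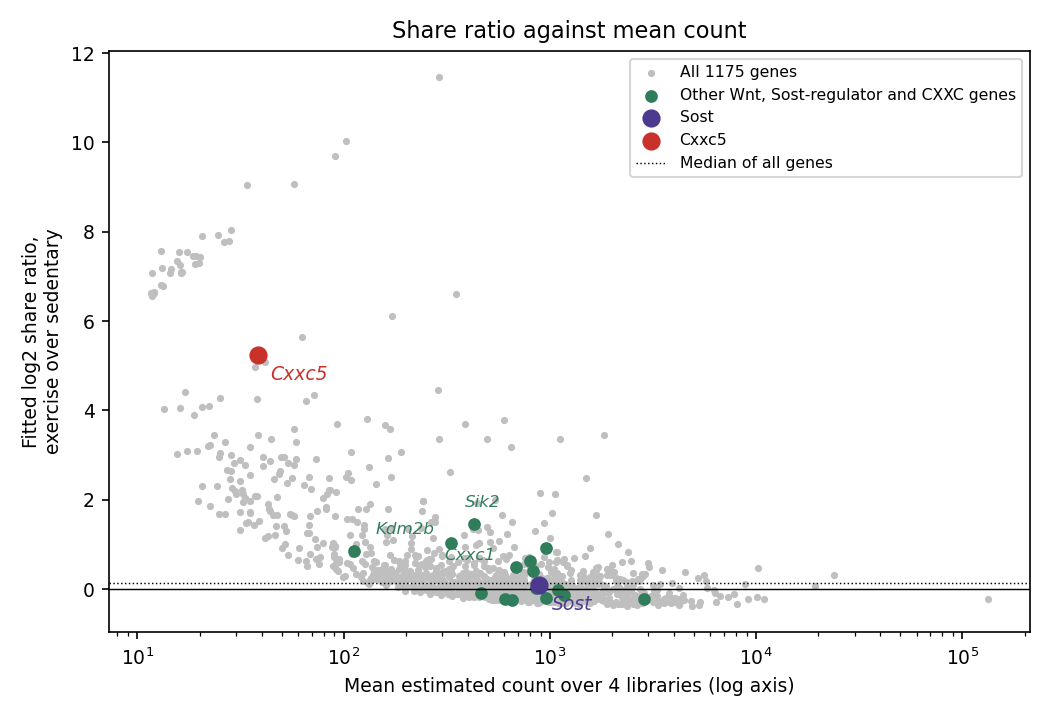
Fitted log2 share ratio of exercise over sedentary against the mean estimated count over the 4 libraries (log axis) for each of the 1175 listed genes, with Sost, Cxxc5 and 15 other Wnt, Sost-regulator and CXXC genes marked. Sost lies at 0.09, beside the median of 0.14 (dotted line), and Cxxc5 lies at 5.25 in the left part of the plot, where no listed gene has a low ratio.

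The Cxxc5 counts were fractional, as were those of 49.3% of the listed genes. Fractions can arise when reads are divided between genes, and the step that made them is not given in the sources used here. A noncoding gene, AC141471.2, runs over Cxxc5 on the same strand from 35799842 to 35858441 and shares 49 of the 3008 exonic bases (1.63%). An antisense gene, Gm29417, shares 11. Neither was listed, and how the counting treated them was not tested, so the Cxxc5 values are uncertain to that extent. Of the nearest protein-coding neighbors, neither Ube2d2a and Psd2 beside Cxxc5 nor Meox1 and Dusp3 beside Sost were listed.

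Cxxc5 belonged to 60 listed genes with under 3 counts in each sedentary library. By symbol, 46 of these were gene models or pseudogenes, and 41 had fractional counts. In 50 of the 60 the share was higher in exercise replicate 2 than in replicate 1, by a median factor of 4.08 over all 60, against 1.36 for Cxxc5. Its share was the 8th highest of the 60 in exercise replicate 1 and the 14th highest in replicate 2.

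The rest of the Wnt pathway was thinly represented. Of 25 genes for Wnt ligands and their release and 24 Wnt target genes, none was listed, which says only that they are not in this table. Lrp5, the co-receptor that sclerostin blocks, was the 1 listed gene of 20 receptors and co-receptors. Its shares were 458 and 349 in sedentary and 417 and 344 in exercised bone, with overlapping groups and a log2 share ratio of -0.09 ± 0.21. The ratio of Sost to Lrp5 counts was 1.58 and 1.91 in sedentary and 1.88 and 2.02 in exercised bone, so the inhibitor and its target stood in overlapping proportions in the 2 groups. Sost was the 1 listed gene of 17 secreted inhibitors.

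Of 27 intracellular inhibitors of the pathway, Cxxc5, Chd8 and Tle2 were listed. Cxxc5 alone passed the thresholds, where 11.3% of all listed genes passed with a higher share. Tle2, a Groucho corepressor that silences TCF/LEF targets, had shares of 50.4 and 54.2 in sedentary and 76.7 and 113 in exercised bone. These groups did not overlap, with exercise higher as in 36% of all listed genes, and the log2 share ratio was 0.86 ± 0.47. It passed the thresholds without exercise replicate 1 (log2 1.11), a fit that does not measure the spread between exercise libraries and in which 650 of the 1175 genes passed. Chd8, a chromatin remodeler that restrains beta-catenin, stood at 1003 and 979 in sedentary and 825 and 982 in exercised bone, and the groups overlapped. Its log2 share ratio was -0.13 ± 0.15, and it was -0.26 without exercise replicate 2, where it passed together with 361 genes in all.

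Of 30 intracellular activators and TCF/LEF factors, Tbl1x and Usp34 were listed and neither passed. Over all listed genes 11.3% passed with a higher share and 0.0851% with a lower one. Usp34, a deubiquitinase that stabilizes axin and promotes beta-catenin signaling in the nucleus, had shares of 353 and 442 in sedentary and 403 and 1088 in exercised bone. Its log2 share ratio of 0.91 ± 0.47 rested on exercise replicate 2, without which it was 0.02, and it passed without exercise replicate 1 (1.46) and with the replicate number as a block (0.75). Tbl1x, an exchange factor for corepressors that also binds beta-catenin, was lower in both exercise libraries, at 440 and 485 against 546 and 526, with a log2 share ratio of -0.21 ± 0.15. Both exercise shares lay below both sedentary shares in 16.1% of all listed genes.

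Of 30 genes taken as upstream regulators of Sost, Hdac5, Sik1, Sik2 and Piezo1 were listed. Hdac5, a histone deacetylase that represses Sost in osteocytes, had shares close to those of Sost in every library. Its shares were 736 and 658 in sedentary and 772 and 649 in exercised bone, which gave a log2 share ratio of 0.03 ± 0.17. The ratio of Sost to Hdac5 counts was 0.982 and 1.015 in sedentary and 1.018 and 1.07 in exercised bone. It was higher in both exercise libraries by a narrow margin, as it was for 24.0% of the partners of Sost. Counting error in this ratio was not tested. Sik2, a kinase that acts on class IIa histone deacetylases downstream of parathyroid hormone, had shares of 133 and 123 in sedentary and 209 and 493 in exercised bone. The groups did not overlap, with exercise higher as in 36% of all listed genes. Among the 432 listed genes with a mean of 50 to under 500 counts, which include Sik2, 47.0% had this separation and 15.0% passed. Sik2 alone of the 4 passed the thresholds, where 11.3% of all listed genes passed with a higher share. Its log2 share ratio was 1.47 ± 0.44 (edgeR adjusted p = 0.360). Leaving out exercise replicate 2 gave 0.71 and leaving out exercise replicate 1 gave 1.95, and the call was lost without sedentary replicate 2 (1.41) and with limma-voom (1.43). Sik2 has fractional counts.

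The ratio of Sost to Sik2 counts was 5.44 and 5.45 in sedentary bone and 3.75 and 1.41 in exercised bone. It was lower in both exercise libraries, as it was for 23.2% of the partners of Sost. Sik1, a related kinase, had shares of 563 and 723 in sedentary and 679 and 415 in exercised bone, which gave a log2 share ratio of -0.24 ± 0.28. This became -0.63 without exercise replicate 1, where it passed, and 0.09 without exercise replicate 2. Piezo1, a mechanically gated channel through which load lowers Sost in mouse bone, stood at 487 and 505 in sedentary and 511 and 803 in exercised bone. Both exercise shares were higher than both sedentary shares, as in 36% of all listed genes, but the log2 share ratio of 0.41 ± 0.25 did not pass. This ratio was 0.04 without exercise replicate 2 and 0.69, passing, without exercise replicate 1.

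Cxxc5 belongs to a family of 12 genes whose products carry a CXXC zinc finger, and 7 of these were listed. Cxxc5, Cxxc1 and Kdm2b passed the thresholds with higher shares and none passed with a lower share, where 11.3% of all listed genes passed with a higher and 0.0851% with a lower share. Kdm2b, a histone demethylase that brings a Polycomb complex to CpG islands, stood at 154 and 149 in sedentary and 340 and 284 in exercised bone. The groups did not overlap, with exercise higher as in 36% of all listed genes. Among the 432 listed genes with a mean of 50 to under 500 counts, which include Kdm2b, 47.0% had this separation and 15.0% passed. The log2 share ratio of Kdm2b was 1.04 ± 0.22 (edgeR adjusted p = 0.240). The call was lost without sedentary replicate 2 (1.01), and its counts are fractional. Cxxc1, a subunit of the SET1 complex that methylates histone H3 at lysine 4, had 250 and 203 whole counts in sedentary and 628 and 1644 in exercised bone. Its shares were 420 and 393 against 541 and 613, a log2 share ratio of 0.51 ± 0.16 (edgeR adjusted p = 0.360). The call of Cxxc1 was lost without sedentary replicate 1 (0.56), without sedentary replicate 2 (0.46) and with the DESeq2 Wald test (0.40).

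The other members of the family did not pass. Kmt2a, a histone H3 lysine 4 methyltransferase, stood at 409 and 397 in sedentary and 382 and 856 in exercised bone, with overlapping groups. Its log2 share ratio of 0.63 ± 0.38 became -0.07 without exercise replicate 2 and 1.09, passing, without exercise replicate 1. Kmt2b, its relative, stood at 909 and 896 in sedentary and 894 and 875 in exercised bone. It was slightly lower in both exercise libraries, with a log2 share ratio of -0.03 ± 0.13. Dnmt1, the maintenance DNA methyltransferase, had shares of 2550 and 2526 in sedentary and 1982 and 2373 in exercised bone. Mbd1, which binds methylated DNA, had shares of 854 and 841 against 721 and 759. Both were lower in each exercise library, with log2 share ratios of -0.22 ± 0.15 and -0.20 ± 0.14. Dnmt1 passed with a lower share without exercise replicate 2 alone (-0.36). Both exercise shares lay below both sedentary shares in 3 of the 7 listed family members (Kmt2b, Dnmt1 and Mbd1), against 16.1% of all listed genes.

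**Figure D3:**
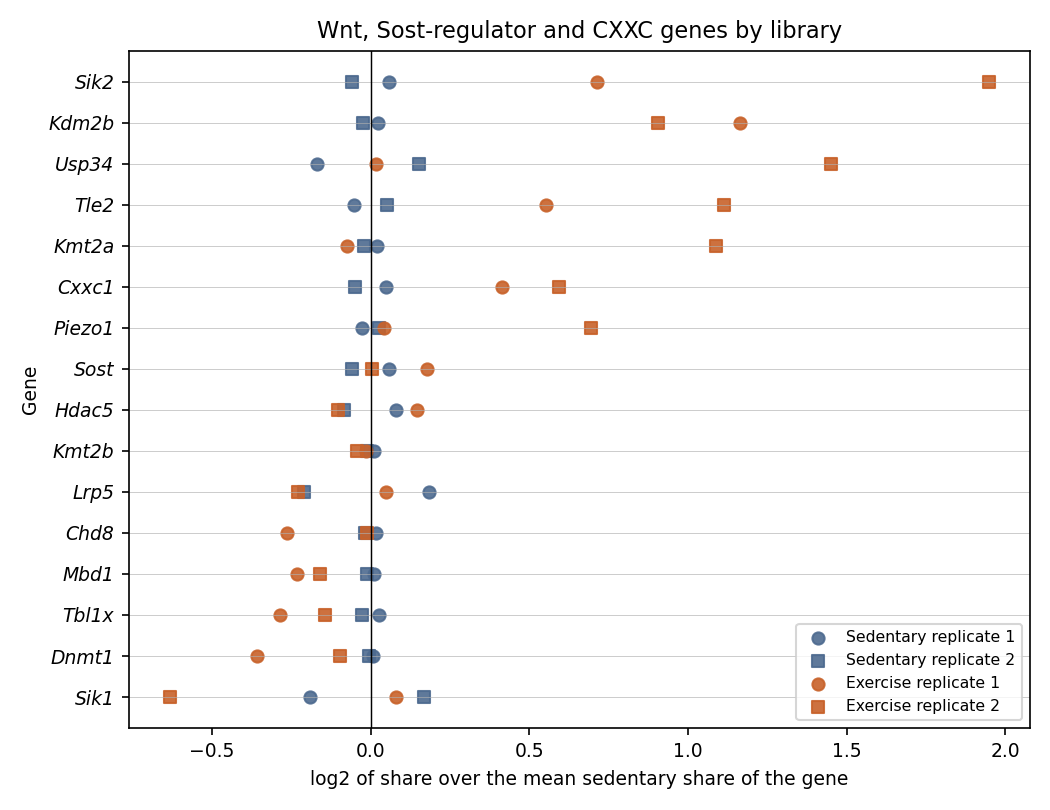
log2 of the share of each of 16 listed Wnt, Sost-regulator and CXXC genes over its mean sedentary share, 1 point per library, with circles for replicate 1 and squares for replicate 2 (Cxxc5 is left out because 1 share is 0). Sost, Hdac5 and Kmt2b stay near 0 in all libraries, Kdm2b and Cxxc1 have both exercise points on the right, and Usp34, Kmt2a and Piezo1 reach the right in exercise replicate 2 alone.

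Together, 15 of the 173 other genes on these 8 lists were in the table, with a median log2 share ratio of 0.03 beside 0.14 over all listed genes. Of the 15, 8 had a ratio above 0, 3 passed the thresholds with a higher share and 0 with a lower one in edgeR. Over all 1175 genes, 753 had a ratio above 0, 11.3% passed with a higher share and 0.0851% with a lower one. At an unadjusted p under 0.05 alone the same 3 genes passed. Without sedentary replicate 2 the number that passed was 0 of the 15, where 44 of all 1175 genes passed. Without exercise replicate 1 it was 8, where 650 of all genes passed, and without exercise replicate 2 it was 5, where 361 did, so passing in these fits sets no member apart. The exercise shares were both higher than either sedentary share in 5 of the 15 and both lower in 4, against 36% and 16.1% of all listed genes.

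The genes most like Sost over the 4 libraries followed it closely. Likeness was the distance between profiles of log2(share + 1), centered on each gene's mean, for genes that averaged 20 counts or more. The nearest was Mllt1, a subunit of the super elongation complex, at a distance of 0.0226 with shares of 329 and 306 in sedentary and 353 and 314 in exercised bone. Mast2 (0.0503), Zbtb25 (0.0543), Fbxo42 (0.0562) and Nbeal2 (0.0727) came next. Cxxc5 had no such near neighbor, but its profile rests on sedentary counts of 1.01 and 0 and on the added 1, so its distances are poorly fixed. Passing over gene models and pseudogenes, the nearest was Raver1, an RNA-binding protein gene, at 1.199 with shares of 45.1 and 40.7 in sedentary and 567 and 630 in exercised bone, and then Lrch3 (1.23), Pakap (1.57), Prr14l (1.71) and Vcl (1.83). All 5 have fractional counts.

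**Figure D4:**
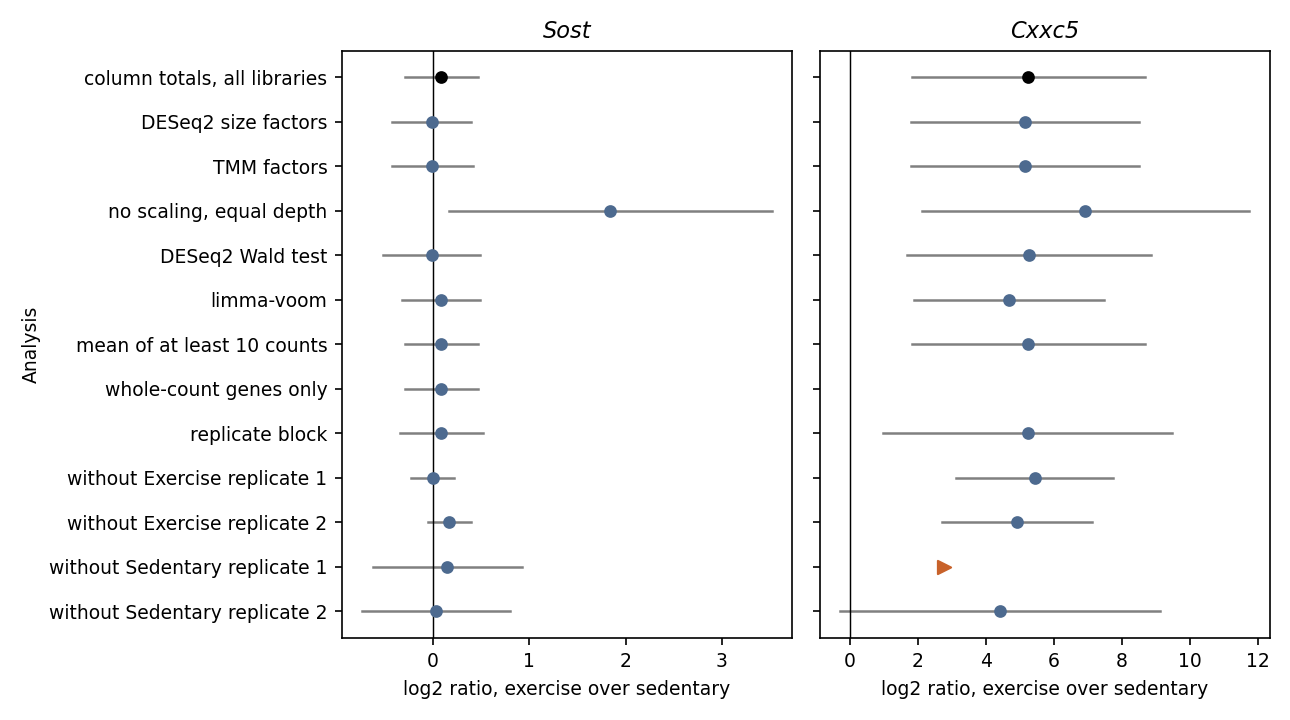
log2 ratio of exercise over sedentary for Sost (left) and Cxxc5 (right) under each analysis, with 95% intervals (bars). The arrowhead is a lower bound against 3 counts. The Sost interval spans 0 in every analysis but the one without scaling, and that of Cxxc5 spans 0 only without sedentary replicate 2.

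Sost was the 1 of 8 osteocyte markers in the table, and none of 10 osteoblast and bone matrix markers was listed, so the osteocyte content of the libraries could not be compared through other genes. Markers of blood cells were listed although the marrow had been flushed. The 4 listed of 8 B lymphocyte markers had summed shares of 22074 and 22288 in sedentary and 42592 and 11405 in exercised bone. The summed shares of the 3 listed of 8 erythroid markers were 10949 and 11109 against 9842 and 10767, and those of the 2 listed of 8 granulocyte markers were 5436 and 5334 against 6978 and 5669. The 2 listed of 7 megakaryocyte markers summed to 1867 and 1667 against 1980 and 1589. The B lymphocyte, erythroid and megakaryocyte sums joined genes that differed in direction. Of the 4 B lymphocyte markers, 2 had a log2 share ratio above 0, as had 753 of all 1175 genes, and 0 passed the thresholds. Of the 3 erythroid markers, 1 passed the thresholds with a higher share and 2 were lower in both exercise libraries. Of the 2 megakaryocyte markers, 1 passed with a higher share and the other had a log2 share ratio below 0. Over all listed genes 11.3% passed with a higher share, and 16.1% were lower in both exercise libraries. None of 6 osteoclast, 6 chondrocyte, 6 muscle, 5 adipocyte, 5 endothelial, 5 T cell and 5 monocyte markers was listed. The part of these cells in the values of Sost and Cxxc5 was not tested.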

How the data were processed

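The authors mapped reads to mm10 with STAR, counted them per gene with HTSeq and removed duplicates by molecular barcode, per the study's methods and the submitters' processing notes. Deposited values are estimated counts, not scaled to depth, in 1175 selected genes, of which 596 were whole in all 4 columns (tolerance 1e-09). The other 579 had fractional counts, and the step that made the fractions is not given in the sources used. Nor do these sources give the rule that selected the 1175 genes, the tool versions, the annotation or the strand setting. Counts were rounded and fitted over all 1175 genes in R 4.3.3 by edgeR (4.0.16, quasi-likelihood F test). Ratios are exercise over sedentary and tests two-sided, with column totals as library sizes and Benjamini-Hochberg adjustment. Each standard error was obtained by dividing the size of the log2 ratio by root F. The study's thresholds (unadjusted p below 0.05, log2 ratio beyond 0.25 in size), which it used with DESeq2, were applied to shares. No exact permutation test was run, as 0.333 is its smallest p with 2 libraries per group.

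Alternatives were DESeq2 1.42.0 size factors and Wald test, TMM factors, no scaling, limma-voom (limma 3.58.1), a filter at a mean of 10 counts, whole-count genes, the replicate number as a block, and each library left out. The fit was tested on simulated data. The members and the gene lists were chosen with earlier results of these data known. The text names Sost, Cxxc5, the listed members of 8 Wnt, Sost-regulator and CXXC lists, the 5 genes with the nearest profiles and neighboring genes. Coordinates are from GENCODE M21 on mm10, matched by symbol. Python 3.11.15 (pandas 2.3.3, SciPy 1.17.1, matplotlib 3.10.9) served for tables and plots.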

Additional observations from a re-analysis of the deposited data

How the results depend on the processing

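Unknown library depth limits every direction given here, since each is a share of a table of selected genes. The log2 share ratio of Sost, 0.09, was -0.011 with DESeq2 size factors, -0.010 with the DESeq2 Wald test and -0.0023 with TMM factors, and 1.84, passing the thresholds, with no scaling. It ran from 0.001 to 0.175 with each library left out and was 0.09 with the replicate block. That of Cxxc5, 5.25, ran from a bound of 2.77 without sedentary replicate 1 to 5.43, was 6.93 with no scaling and 5.23 with the replicate block, and lost its call only without sedentary replicate 2 (4.41). Cxxc5 is not among the whole-count genes, so that alternative gave it no value.

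The number of genes past both thresholds, 134 in edgeR, became 745 with no scaling, 68 with limma-voom, 42 in the smaller set of whole-count genes, and from 44 to 650 on leaving out 1 library. The split of 133 higher and 1 lower was 121 and 21 with DESeq2 size factors. Genes past an adjusted p of 0.05, 4 in edgeR, were 103 with no scaling, 12 with the replicate block, 36 with the Wald test of DESeq2, 0 with limma-voom (68 past the unadjusted thresholds), 0 among whole-count genes in edgeR (42 past them), and from 0 to 651 on leaving out 1 library. A fit without 1 library assumes that the lone sample of its group varies like the other pair.

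With no scaling the log2 ratios of Lrp5 (1.63), Chd8 (1.70), Tbl1x (1.60), Sik1 (1.42), Dnmt1 (1.62), Kmt2b (1.75) and Mbd1 (1.61) turned positive, below a median of 1.94 over all genes, and 11 of the 15 other list members passed the thresholds, Chd8, Dnmt1 and Kmt2b among them, as did 745 of all genes. Hdac5, 0.03, was -0.074 with DESeq2 size factors and with the Wald test, -0.065 with TMM factors, and -0.104 to 0.144 with each library left out. Lrp5, -0.09, was -0.271 to 0.127, Sik1, -0.24, was -0.628 to 0.085 and Kmt2a, 0.63, was -0.074 to 1.09 with each library left out. Beyond the scaling and the samples used, the cause was not tested. The difference between replicates 1 and 2 in exercise correlated at -0.08 with that in sedentary bone across 1005 genes. With 2 libraries per group this cannot show whether the replicate numbers paired the libraries.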

Other observations

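Liver transcripts appeared in exercise replicate 2, a pattern noticed only after the values were seen. Of 22 hepatocyte genes, Apoa2, Ambp, Hpx, Fabp1 and Mup20 were listed, all with whole counts. Apoa2, an apolipoprotein of plasma lipoprotein particles, had 7 and 8 counts in sedentary and 7 and 323 in exercise replicates 1 and 2. Fabp1, the fatty acid binding protein of liver, had 0 and 1 against 2 and 86. Hpx, the heme carrier of plasma, had 0 in both sedentary libraries and 1 and 46 in the exercise libraries. The summed share of the 5 genes was 11.8 and 17.4 in sedentary bone, 12.9 in exercise replicate 1 and 203 in exercise replicate 2. None of the 5 passed the thresholds, where 11.3% of all listed genes passed with a higher share and 0.0851% with a lower one. The exercise libraries differed widely in these genes, so not passing does not show that the groups were alike. For 3 of the 5 (Ambp, Hpx and Mup20) the groups were separate, with exercise higher. Such separation was seen in 36% of all listed genes and in 91.4% of the 105 with a mean under 50 counts. The shares of Cxxc5, 31.6 and 43.0 in the exercise libraries, and of Sost, 786 and 696, did not show this difference between replicates, and the origin of the liver transcripts was not tested.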
